A study of Arabidopsis thaliana with 30 samples.

Results

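A pair of genes of the heat shock response, Hsp70-2 (AT5G02490) and AT1G54050, were followed through the regeneration of the Arabidopsis thaliana root tip. Each gene had 1 probe set that the platform's annotation pairs with exactly 1 gene, 250994_at for Hsp70-2 and 263150_at for AT1G54050, so the members were 2 of the 13350 genes named in this way and 2 of the 22746 probe sets on the Affymetrix ATH1 array. The genes were chosen because their signals in the stump at 5, 13 and 22 h after excision were higher than at 0 h. Those differences are therefore given as a description, with no test. Tests were kept to differences among the other groups, although their errors come from a model that also holds the stump series, and the comparisons were chosen with earlier results of these data known.

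All plants were of the Col-0 background, and no transgene or mutation is named in the labels. Roots of seedlings grown for 4 days were cut to remove the distal 130 µm, and the 70 µm of stump next to the cut was collected at 0 h (4 arrays), 5 h (4 arrays), 13 h (4 arrays) and 22 h (5 arrays). The other groups were a stump at 8 days post germination (dpg) with 3 arrays, the excised tip at 8 dpg with 3 arrays, the excised tip at 4 dpg with 4 arrays, and a root section between 270 and 340 from the tip with 3 arrays. The titles of the 8 dpg stump give a recut after 0 h, as those of the fresh stump at 4 dpg do. Its source name instead places it days after a first cut. Whether it was a fresh stump or one long after cutting is therefore not settled by the labels. The section was harvested at once and serves in the design as wounded tissue that does not regenerate a tip. Its age is not given, and the titles print distances in mm where the protocol gives µm. At least 25 pieces of tissue were pooled for each of the 30 arrays, and 50 ng of total RNA was amplified in 2 cycles. Separate sowings or plates are not named for the replicates, and a p-value here therefore speaks of array-to-array spread, which may be technical.

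Heat shock proteins are chaperones that bind unfolded or aggregating proteins, and plants make them in heat and in several other stresses as well as in ordinary growth. Proteins of the HSP70 family bind and release short exposed stretches of a client in a cycle driven by ATP, helped by co-chaperones that set the pace of the cycle. Small heat shock proteins work without ATP: they form large assemblies that hold unfolded clients until HSP70 and its partners refold them. Hsp70-2 encodes a cytosolic HSP70 and lies next to HSC70-1, another gene of that family, in the RefSeq annotation. AT1G54050 encodes a small heat shock protein of class III. Cytosolic HSP70 transcripts are alike in sequence, and whether the probes for Hsp70-2 also bind transcripts of its relatives was not tested.

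The deposited values were MAS5 signals, in which a probe set is summarised to a single brightness on a linear scale. A signal can be compared between arrays for the same probe set but not between probe sets. Differences were taken on the scale of log2(signal + 32), where a difference of 1 is a doubling of signal + 32, and are given with their SE from a limma model over all 8 groups. A probe set was called where the Benjamini-Hochberg adjusted p over all 22746 probe sets lay under 0.05 and the difference was at least 1 in size. Median signals of the arrays ranged from 66.1 to 141.8. Arrays 1 and 2 of the stump at 0 h, array 1 of the stump at 22 h and array 1 of the tip at 4 dpg stood apart with medians above 120, and the next highest was 103.6. The lowest correlation between arrays of a group was 0.793, and no arrays were identical. The number of arrays limits the precision of every value below.

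Hsp70-2 gave a signal of 86.3, 244, 71.0 and 150.9 in the 4 stump arrays at 0 h. The signal was 737, 1131.5, 981.2 and 779.6 at 5 h, and 635.4, 733.9, 851.2 and 980.2 at 13 h. At 22 h it was 766.1, 210.1, 1305.8, 979.8 and 568.9. All arrays at 5 h and at 13 h lay above all arrays at 0 h, and at 22 h 4 of the 5 arrays did, with array 2 inside the range of the 0 h arrays. The mean signal was 138.1 ± 78.7 at 0 h (SD, n = 4), 907.3 ± 183.5 at 5 h (n = 4), 800.2 ± 148.9 at 13 h (n = 4) and 766.1 ± 413.8 at 22 h (n = 5).

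On the log2 scale Hsp70-2 was 2.56 ± 0.369 higher at 5 h than at 0 h, a 5.88-fold difference of signal + 32. The difference from 0 h was 2.38 ± 0.369 at 13 h and 2.13 ± 0.350 at 22 h. The 3 differences share the 0 h arrays. Without the 4 arrays of high median they were 2.75, 2.58 and 2.28. Between later times the differences of Hsp70-2 were smaller than their SE: 13 h minus 5 h was -0.17 ± 0.369, and 22 h minus 13 h was -0.25 ± 0.350, with overlapping arrays in both. Over all probe sets, the 5 h arrays lay wholly above the 0 h arrays in 2.73%, and the 13 h arrays did so in 2.93%. Because the gene was chosen on these contrasts, nothing is read from its place among them.

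AT1G54050 gave 220, 201.1, 273.7 and 290.5 in the stump at 0 h, the tightest of its 4 stump groups on the log2 scale (SD 0.22). At 5 h its signal was 1029.4, 2216, 1611.3 and 891, and at 13 h it was 948.1, 2007.5, 527.5 and 673.9. At 22 h it was 341.9, 265, 2265.4, 771.2 and 464.3. As with Hsp70-2, every array at 5 h and 13 h lay above every array at 0 h, and at 22 h array 2 fell inside the 0 h range. Array 3 at 22 h was the highest value of the gene on any array. The mean signal was 246.3 ± 42.6 at 0 h (SD, n = 4), 1437 ± 605.9 at 5 h (n = 4), 1039 ± 668.6 at 13 h (n = 4) and 821.6 ± 829.9 at 22 h (n = 5).

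The difference of AT1G54050 from 0 h was 2.32 ± 0.435 on the log2 scale at 5 h, or 5.00-fold of signal + 32. It was 1.77 ± 0.435 at 13 h and 1.20 ± 0.413 at 22 h. Without the 4 arrays of high median these were 2.14, 1.59 and 1.20. The later steps were both negative, -0.55 ± 0.435 for 13 h minus 5 h and -0.57 ± 0.413 for 22 h minus 13 h, and the arrays overlapped in each. Leaving out array 3 at 22 h gave 0.73 for 22 h minus 0 h, and leaving out each array of either group in turn gave 0.73 to 1.47. The same range for Hsp70-2 was 1.89 to 2.51.

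**Figure D1:**
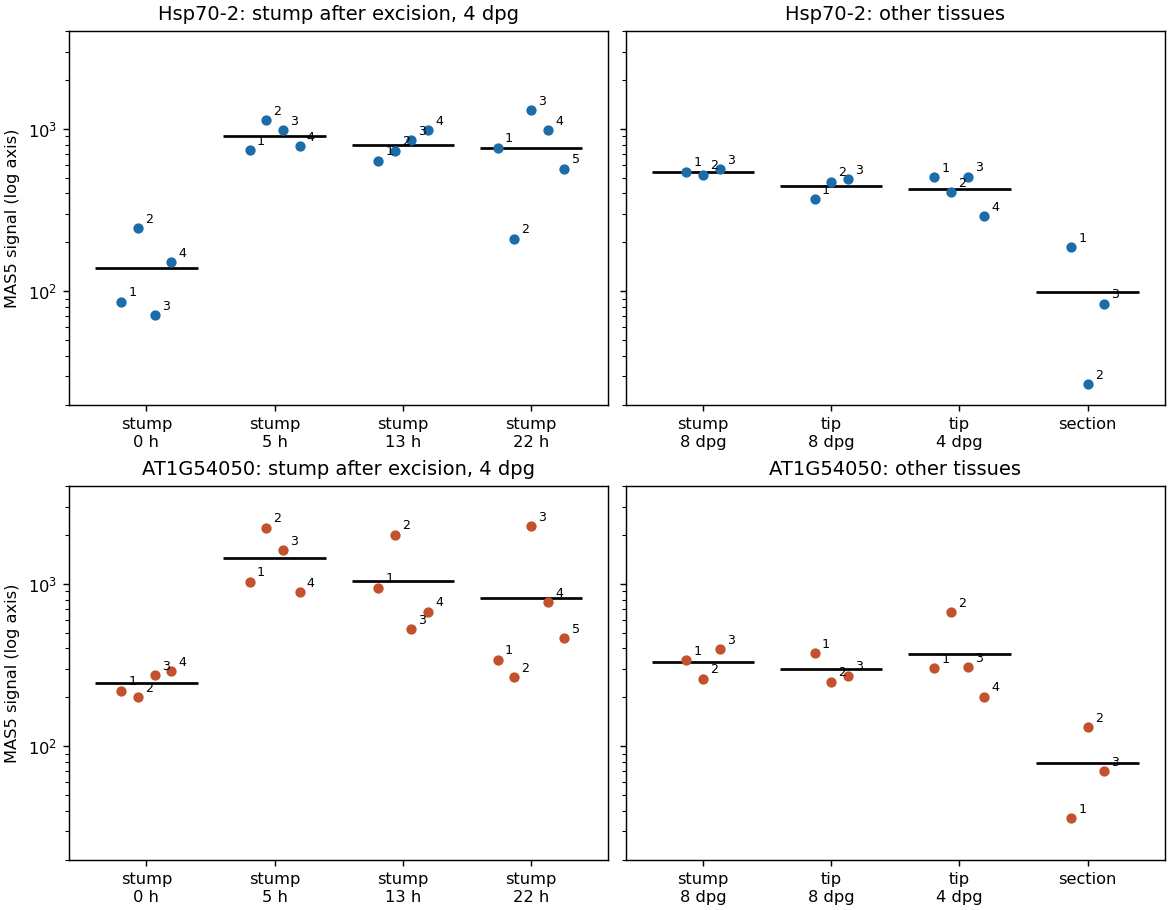
MAS5 signal (log axis) of Hsp70-2 (upper panels) and AT1G54050 (lower panels) on each of the 30 arrays, with 1 point per array, numbered by array, and a bar at the mean of the group. The stump series is on the left in order of time, where the 5 h and 13 h points lie above all 0 h points for both genes, and the section points are the lowest on the right.

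The differences among the tip and the stump at 8 dpg, the tip at 4 dpg and the section were not the ones that chose the genes, and they were tested. Hsp70-2 gave 545.5, 522.4 and 566.2 in the stump at 8 dpg, against 368.6, 472.8 and 491.7 in the tip at 8 dpg. The 3 stump arrays lay above the 3 tip arrays, which was so in 8.0% of all probe sets. The difference of 0.28 ± 0.426 on the log2 scale (95% interval -0.58 to 1.15) did not pass the test, with an adjusted p of 1 in limma. AT1G54050 gave 339.4, 260.3 and 395.7 in the stump at 8 dpg, against 374.5, 249.4 and 271.2 in the tip at 8 dpg. Its arrays overlapped, and the difference was 0.14 ± 0.503 (95% interval -0.88 to 1.16, adjusted p = 1 in limma). In this comparison 0.0% of the 22746 probe sets were called by limma, and 238 had an unadjusted p under 0.05, a share below 0.05. The SE pools the spread of all 8 groups. On the log2 scale the SD of Hsp70-2 was 0.055 in this stump and 0.21 in this tip, against 0.95 in the stump at 22 h. A fit of only these groups gave 0.28 ± 0.122 for Hsp70-2 (adjusted p = 0.372 in limma) and 0.14 ± 0.178 for AT1G54050 (adjusted p = 0.824 in limma). That fit called 15 probe sets and a fit with array weights called 39, with neither of the 2 genes among them.

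In the tip at 4 dpg Hsp70-2 gave 504.4, 407.8, 506.3 and 289.9, so the tips at 8 dpg fell inside the range of the younger tips. The difference, 8 dpg minus 4 dpg, was 0.07 ± 0.398 (95% interval -0.74 to 0.88, adjusted p = 0.982 in limma). AT1G54050 gave 302.9, 667.9, 305.9 and 201.6 in the tip at 4 dpg, and its 8 dpg tips also lay inside that range. Its difference was -0.18 ± 0.470 (95% interval -1.13 to 0.78, adjusted p = 0.961 in limma). The background in this comparison was 0.444% of probe sets called in either direction. These 101 calls became 43, 25 and 37 without array 1, 2 or 3 of the tip at 8 dpg and 67 and 63 without array 1 or 3 of the tip at 4 dpg, and 220 when the 4 arrays of high median were left out and 375 with array weights. The intervals are wide, and they hold differences as large as 0.88 for Hsp70-2 and -1.13 for AT1G54050. Without the 4 arrays of high median the differences were 0.16 and -0.22.

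Both genes were lowest in the section. Hsp70-2 gave 186.4, 26.7 and 83.7 there, and AT1G54050 gave 35.9, 131.1 and 69.9. For each gene, every array of the tips and of the 8 dpg stump lay above every section array. The arrays were parted in this way for 25.9% of all probe sets in the tip at 8 dpg against the section, 18.9% in the tip at 4 dpg and 25.0% in the stump at 8 dpg. Array 2 of the section was the lowest of the 3 for Hsp70-2 and the highest for AT1G54050.

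Hsp70-2 was higher by 2.05 ± 0.426 on the log2 scale in the tip at 8 dpg than in the section (adjusted p = 0.000455 in limma), with a mean signal of 444.4 ± 66.3 in the tip and 98.9 ± 80.9 in the section (SD, n = 3 each). It was higher by 1.98 ± 0.398 in the tip at 4 dpg (adjusted p = 0.000326 in limma) and by 2.34 ± 0.426 in the stump at 8 dpg (adjusted p = 8.24e-05 in limma). AT1G54050 was higher by 1.65 ± 0.503 in the tip at 8 dpg (adjusted p = 0.0162 in limma), with a mean signal of 298.4 ± 66.8 in the tip against 79.0 ± 48.2 in the section. It was higher by 1.82 ± 0.470 in the tip at 4 dpg (adjusted p = 0.00414 in limma) and by 1.79 ± 0.503 in the stump at 8 dpg (adjusted p = 0.00845 in limma). The 3 comparisons share the section arrays and are not independent of each other. Probe sets called higher made up 9.93% of the array for the tip at 8 dpg, 9.9% for the tip at 4 dpg and 10.0% for the stump at 8 dpg, so a call of this kind was common.

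The Hsp70-2 calls against the section held whichever array was left out. Those of AT1G54050 in the tip at 8 dpg were lost without array 1 of that tip (1.49, adjusted p = 0.0746 in limma) or without array 1 of the section (1.34, adjusted p = 0.106 in limma). The call in the tip at 8 dpg also ended with quantile normalization (1.39, adjusted p = 0.0583 in limma) and with a pseudocount 4 times as large (1.06, adjusted p = 0.0968 in limma). Its call in the stump at 8 dpg was lost without array 1 of the section (1.48, adjusted p = 0.0659 in limma) and with the larger pseudocount (1.17, adjusted p = 0.0591 in limma). Its call in the tip at 4 dpg kept an adjusted p of at most 0.0438 under every alternative run.

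Against the same section arrays the stump at 5 h was higher by 3.02 ± 0.398 for Hsp70-2 and by 3.73 ± 0.470 for AT1G54050, or 8.12-fold and 13.3-fold of signal + 32. At 13 h the differences were 2.85 ± 0.398 for Hsp70-2 and 3.18 ± 0.470 for AT1G54050, and at 22 h they were 2.60 ± 0.381 and 2.60 ± 0.450. All stump arrays at these times lay above all section arrays for both genes, as in 15.1% of probe sets at 5 h, 15.3% at 13 h and 13.1% at 22 h. These are descriptions, since the stump arrays served to choose the genes.

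**Figure D2:**
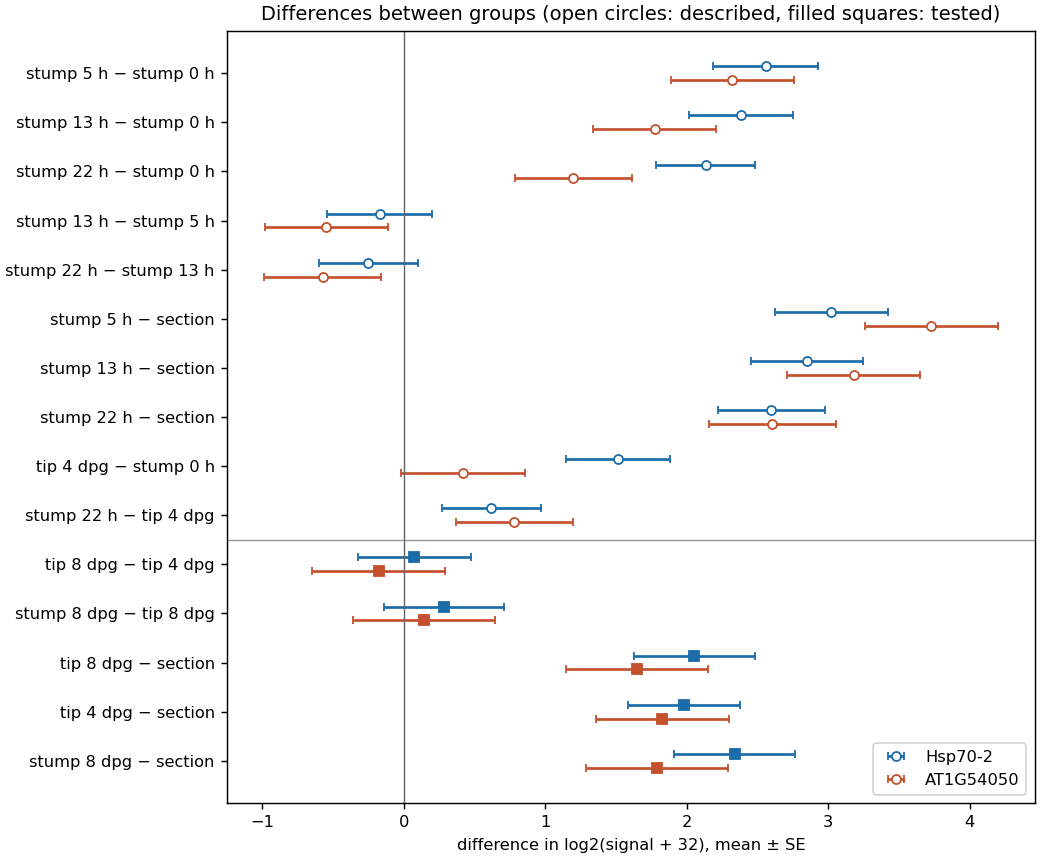
Differences between groups on the scale of log2(signal + 32), mean ± SE from the limma model, for Hsp70-2 (blue) and AT1G54050 (orange). Open circles above the line are described differences and filled squares below it are tested ones. Differences against the section lie between 1.65 and 3.73, and those among the tips and the stump at 8 dpg lie near 0.

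The fresh stump was next to the section in mean level for both genes. Hsp70-2 in the tip at 4 dpg was 1.51 ± 0.369 higher than in the stump at 0 h cut from roots of the same age, with no overlap of the arrays, as in 2.28% of probe sets. For AT1G54050 the same difference was 0.42 ± 0.435, and the arrays overlapped. Hsp70-2 in the stump at 0 h overlapped the section. For AT1G54050 all 4 stump arrays at 0 h lay above the 3 section arrays, as in 13.4% of probe sets. Whether the genes differ in these respects was not tested. The stump at 22 h minus the tip at 4 dpg was 0.62 ± 0.350 for Hsp70-2 and 0.78 ± 0.413 for AT1G54050, with overlap in both. Without the 4 arrays of high median, the tip at 4 dpg minus the stump at 0 h was 1.63 for Hsp70-2 and 0.28 for AT1G54050, and the stump at 22 h minus the tip at 4 dpg was 0.65 for Hsp70-2 and 0.92 for AT1G54050.

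Ordered by mean log2 level, Hsp70-2 was highest in the stump at 5 h, then at 13 h, at 22 h and at 8 dpg, followed by the tips at 8 dpg and 4 dpg, the stump at 0 h and the section. Neighbours in that order overlapped except at 2 steps, between the 8 dpg stump and the 8 dpg tip and between the 4 dpg tip and the fresh stump. For AT1G54050 the order was the stump at 5, 13 and 22 h, the tip at 4 dpg, the stump and then the tip at 8 dpg, the stump at 0 h and the section. There the stump at 0 h and the section were the only neighbours whose arrays did not overlap. The groups of highest level were the same for both genes, and the stump at 0 h overlapped the section for Hsp70-2 and the tips for AT1G54050.

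Markers of cell identity were read beside these levels. BBM, a regulator of stem cell identity in the root tip, gave 6.6 to 25.5 in the stump at 0 h, against 5.8 to 12.5 in the section and at least 43.1 on every other array. JKD, a regulator of tissue boundaries in the root, had another pattern: its mean was highest in the stump at 0 h (131.7), 98.4 in the section and lowest in the stump at 5 h (32.6), where Hsp70-2 was highest. The summed signal of the 2 root tip markers with a named probe set out of 10 listed (BBM and JKD) was 129.3 to 272.1 at 5 h, 166.5 to 245.1 at 13 h, 142.1 to 411.1 at 22 h, 256.6 to 392.1 in the stump at 8 dpg, 249.4 to 370.9 in the tip at 8 dpg, 93.0 to 407.0 in the tip at 4 dpg, 70.4 to 300.4 in the stump at 0 h and 55.1 to 143.4 in the section. For the 2 of 4 root hair markers with a named probe set, the expansins EXPA7 and EXPA18, the sum was 68.2 to 187 at 0 h, 22.4 to 65.1 at 5 h, 116.6 to 1015 at 13 h and 120.1 to 1306 at 22 h. It was 27.0 to 132.2 in the stump at 8 dpg, 31.2 to 102 in the tip at 8 dpg, 16.1 to 222.7 in the tip at 4 dpg and 55.2 to 92.4 in the section. No marker was at 0, and neither of the 2 shoot markers listed had a named probe set. At 5 h, when both heat shock genes were highest, the root hair sum was lowest of the 4 stump times. At 22 h it was highest on array 2 (1306) and next on array 3 (925.8), the arrays with the lowest and the highest signal of both heat shock genes. The part of cell makeup in the levels of Hsp70-2 and AT1G54050 was not tested, and in pooled tissue fewer cells of a type and less RNA per cell cannot be told apart.

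A list of 94 heat shock genes gave the setting for the pair, of which 25 had a probe set named for 1 gene, and 23 besides Hsp70-2 and AT1G54050. Those 23 were 3 genes of the HSP70 family, 10 small heat shock proteins, 9 co-chaperones and other heat-induced genes and 1 chaperonin. None of the 10 HSP90 and HSP100 genes and none of the 21 heat shock factors listed had such a probe set. At 5 h against 0 h 4 of the 23 were called higher and 0 lower, where 1.48% of all probe sets were called higher and 1.16% lower. They were the mitochondrial small heat shock gene AT5G51440 (2.14 ± 0.580, adjusted p = 0.0334 in limma), the class I small heat shock gene AT2G29500 (1.96 ± 0.451, adjusted p = 0.011), the plastid chaperonin gene Cpn60beta2 (1.57 ± 0.361, adjusted p = 0.0108) and the cytosolic HSP70 gene AT3G09440 (1.37 ± 0.326, adjusted p = 0.0145). The difference was above 0 for 19 of the 23, with a median of 0.75, beside a median of -0.15 over all probe sets. All 4 calls were lost without array 1 of the stump at 0 h, and 2 of 23 were called without array 2 or without array 3 at 5 h. The number of probe sets called in all, 599, was 373 without array 1 at 0 h, 1078 without array 3 at 0 h, 1030 without array 4 at 0 h, 344 without array 3 at 5 h and 395 without array 4 at 5 h.

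Among the close relatives of Hsp70-2, AT3G09440 gave 1503.7, 2963.1, 2970.8 and 1694.5 at 5 h, against 547.7, 626.1, 783.7 and 1704.3 at 0 h. Array 4 at 0 h reached into the range of the 5 h arrays, so this gene overlapped where Hsp70-2 did not. The HSP110-type genes AT1G11660 (0.54 ± 0.207) and AT4G16660 (0.37 ± 0.233), whose proteins exchange the nucleotide of HSP70, were not called at 5 h. Of the 10 small heat shock genes beside AT1G54050, 2 were called higher at 5 h. The class I gene AT1G53540 was at 1.68 ± 0.491 with an adjusted p of 0.0505 in limma. Differences in the other small heat shock genes ranged down to -1.06 ± 0.371 for AT4G21870, which was not called. Of the 9 co-chaperones and other heat-induced genes, 8 were above 0 at 5 h, with a median of 0.75 and 0 calls. The HSP70-HSP90 organizing genes Hop1, Hop2 and Hop3 gave 0.75, 0.75 and 0.96, and Fes1A, whose product binds HSP70, gave 0.88. For Hop2 the adjusted p was 0.0404 in limma, with a difference under 1. Mean log2 levels at 0 h and 5 h were 8.72 and 10.49 for AT5G48570 and 9.98 and 11.24 for AT4G02450. HSA32 went the other way, with 7.44 and 7.11.

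At 13 h against 0 h 2 of the 23 were called higher, AT5G51440 (2.28 ± 0.580) and Cpn60beta2 (1.78 ± 0.361), and the small heat shock gene AT5G47600 was called lower (-1.37 ± 0.361), beside 1.38% and 0.598% of all probe sets. The adjusted p in limma was 0.0275 for AT5G51440, 0.00354 for Cpn60beta2 and 0.0339 for AT5G47600. The median of the 23 was 0.63 against -0.11 over all probe sets. The call of Cpn60beta2 held under all 18 alternatives run. That of AT5G51440 was lost without array 2 at 0 h and without array 1 or 2 at 13 h, and that of AT5G47600 was lost without array 1 or 2 at 0 h and without any 1 of the 4 arrays at 13 h. Without array 3 at 0 h 4 of the 23 were called higher, and without array 4 at 0 h 5 were. The total of 450 probe sets called was 773 without array 3 at 0 h and 842 without array 4 at 0 h.

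At 22 h against 0 h none of the 23 was called in limma, 6 had an unadjusted p under 0.05, and 1.47% of all probe sets were called in either direction. The median of the 23 was 0.40, against -0.05 over all probe sets. Without array 1 at 22 h 4 of the 23 were called higher, and 1 was without array 2 at 22 h or without array 4 at 0 h. The 335 probe sets called in all became 549 without array 1 at 22 h and 213 without array 3 at 22 h. From 5 h to 13 h and from 13 h to 22 h none of the 23 was called in limma, with 1 at an unadjusted p under 0.05 in each step. Over all probe sets 0.374% were called in the first of these steps and 0.0176% in the second. The 85 calls of the first step became 53, 38 and 41 without array 2, 3 or 4 at 5 h and 43, 48 and 51 without array 2, 3 or 4 at 13 h. The 4 calls of the second became 2 and 1 without array 2 or 3 at 13 h and 1, 10 and 8 without array 1, 2 or 5 at 22 h.

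**Figure D3:**
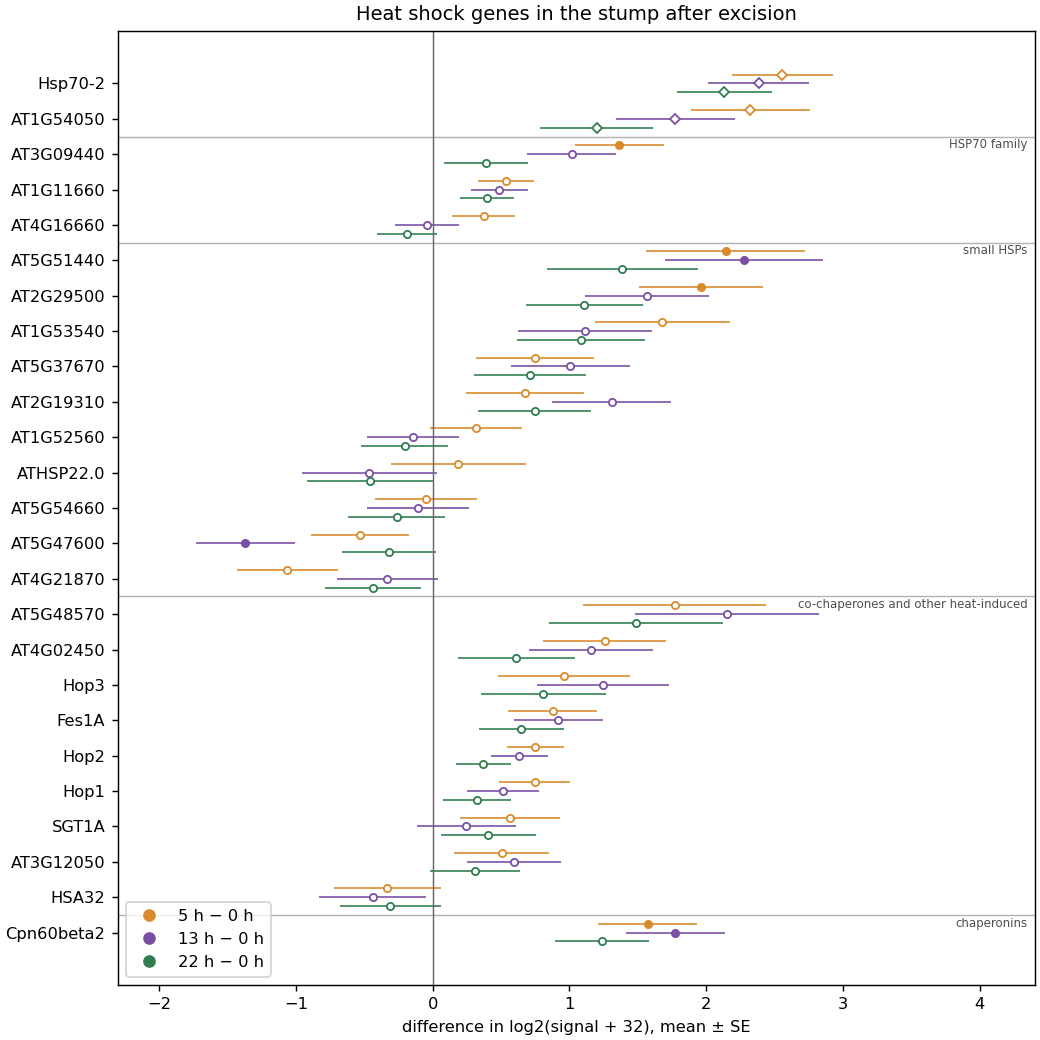
Difference from the stump at 0 h on the scale of log2(signal + 32), mean ± SE from the limma model, at 5 h (orange), 13 h (purple) and 22 h (green). Diamonds are Hsp70-2 and AT1G54050, which were not tested here, and circles are the 23 other heat shock genes, filled where called. The 2 diamonds at 5 h lie at 2.56 and 2.32, and 19 of the 23 circles at 5 h lie above 0.

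Against the section, 8 of the 23 were called higher in the stump at 5 h, 6 at 13 h and 5 at 22 h, with 0 lower at each time. Over all probe sets 6.38% were called higher and 5.44% lower at 5 h, 5.21% and 3.56% at 13 h, and 7.43% and 4.75% at 22 h. Fes1A (1.71 ± 0.353, 1.75 ± 0.353 and 1.48 ± 0.338 at 5, 13 and 22 h) and AT2G29500 (2.66 ± 0.488, 2.27 ± 0.488 and 1.81 ± 0.466) were called at all 3 times under every alternative run. The adjusted p in limma was 0.000733, 0.000824 and 0.0021 for Fes1A and 0.000184, 0.00157 and 0.0061 for AT2G29500. The 8 became 5 without array 2 or array 3 at 5 h or array 1 of the section, and 4 without array 3 of the section. The 5 at 22 h became 3 without array 3 or 4 at 22 h or array 2 or 3 of the section. At 13 h, the 1995 probe sets called in all became 1274 without array 3 of the section.

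In the tip at 8 dpg against the section 1 of the 23 was called higher and 1 lower, in the tip at 4 dpg 3 and 1, and in the stump at 8 dpg 4 and 1. Over all probe sets 9.93%, 9.9% and 10.0% were called higher and 7.33%, 7.18% and 7.83% lower in these comparisons, and nothing is read from the list's counts beside those shares. The gene called lower was AT4G16660 each time, by -1.16 ± 0.269 in the tip at 8 dpg (adjusted p = 0.00153 in limma), -1.36 ± 0.251 in the tip at 4 dpg (adjusted p = 0.000112) and -1.82 ± 0.269 in the stump at 8 dpg (adjusted p = 3.69e-06), under every alternative run. AT4G16660, an HSP110-type protein of the endoplasmic reticulum, was thus below the section in the tissues in which Hsp70-2 was above it. The comparisons share the section arrays. The cytosolic relative AT3G09440 differed by -0.01 ± 0.376, -0.02 ± 0.352 and 0.05 ± 0.376 in these comparisons. AT2G29500, close to AT1G54050 in its pattern, was at 1.15 ± 0.521, 1.19 ± 0.488 and 1.27 ± 0.521, with adjusted p of 0.134, 0.0808 and 0.0856 in limma. The call of Fes1A in the tip at 8 dpg (1.14 ± 0.378, adjusted p = 0.028) was lost without any 1 of the 3 tip arrays or without array 1 or 3 of the section. The 3 genes called higher in the tip at 4 dpg were AT5G37670 (1.48, adjusted p = 0.02 in limma), HSA32 (1.59, adjusted p = 0.0053) and Cpn60beta2 (1.14, adjusted p = 0.0326). The 4 in the stump at 8 dpg were AT5G37670 (1.74, adjusted p = 0.0103 in limma), HSA32 (1.56, adjusted p = 0.0104), AT5G47600 (1.29, adjusted p = 0.0235) and Fes1A (1.265, adjusted p = 0.0134). AT5G37670 is a small heat shock gene. The 3 in the tip became 1 without array 3 of that tip, and the 4 in the stump became 2 without array 1 of the section.

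None of the 23 was called in limma between the tips at 8 and 4 dpg (1 with an unadjusted p under 0.05), between the stump and the tip at 8 dpg (2), or between the 4 dpg tip and the fresh stump (3). For the last of these 2.17% of all probe sets were called. Those 494 calls became 989, 281 and 326 without array 1, 3 or 4 of the tip at 4 dpg, 302 and 961 without array 2 or 4 at 0 h, and 54 in a fit of only the groups compared. In that comparison 2 were called higher and 1 lower without array 1 of the tip at 4 dpg or without array 4 at 0 h, and 1 was called lower without array 2 at 0 h. In the stump at 22 h against the tip at 4 dpg 1 was called, AT5G48570 (2.13 ± 0.637, adjusted p = 0.0477 in limma), a peptidyl-prolyl isomerase known as ROF2, where 2.48% of probe sets were called higher. The 780 probe sets called in either direction became 500 without array 3 of the tip at 4 dpg and 497 without array 3 at 22 h. The call of AT5G48570 was lost without array 3 or 4 of the tip at 4 dpg or array 3, 4 or 5 at 22 h, and 3 of the 23 were called without array 1 at 22 h.

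The stump arrays at 22 h differed from each other in the level of the heat shock genes. Array 3 gave the highest signal of both Hsp70-2 and AT1G54050, and of 14 of the 23 other genes, where it was highest in 16.2% of all probe sets. Array 2 gave the lowest signal of both members but of 4 of the 23, where it was lowest in 26.6% of all probe sets. Array 1 was the lowest for 14 of the 23, against 21.3% of all probe sets, while Hsp70-2 on it stood 0.21 above its mean of the 5 arrays. The median deviation of the 23 from their own means was -0.83, -0.34, 0.63, 0.49 and 0.07 on arrays 1 to 5, beside 0.10, -0.08, 0.00, 0.06 and -0.11 over all probe sets. Hsp70-2 deviated by 0.21, -1.51, 0.95, 0.55 and -0.20 on the same arrays, and AT1G54050 by -0.76, -1.09, 1.86, 0.34 and -0.35. Array 1 at 22 h is also among the 4 arrays of high median signal. The spread of Hsp70-2 on the log2 scale was 0.95 at 22 h (SD, n = 5), against 0.28 at 5 h and 0.26 at 13 h (n = 4 each). At 5 h array 2 gave the highest signal of both members and of 9 of the 23, where it was highest in 23.4% of all probe sets. Array 3 at 5 h was highest for another 9 of the 23, where it was highest in 23.9% of all probe sets.

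**Figure D4:**
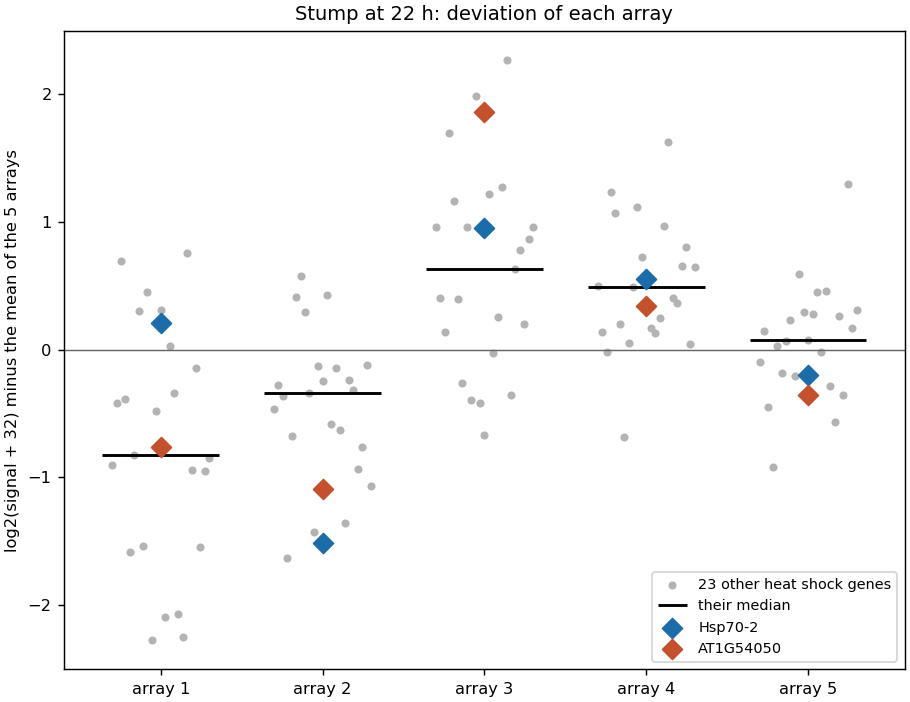
Deviation of each stump array at 22 h from the mean of the 5 arrays, in log2(signal + 32), for the 23 other heat shock genes (grey points, black bar at their median), Hsp70-2 (blue) and AT1G54050 (orange). The medians lie at -0.83 on array 1 and 0.63 on array 3, and both members lie highest on array 3 and lowest on array 2.

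Likeness of pattern was measured as the Pearson correlation of the 8 group means of log2(signal + 32), over 6180 probe sets with 1 gene and a highest group mean above the median. Group means share arrays and scaling, and the values are descriptive. The genes closest to Hsp70-2 were AT1G30070 (r = 0.976), AT5G18310 (0.972), AT1G66080 (0.967), the expansin gene EXPA4 (0.962) and AT3G23570 (0.954). None of these 5 is on the list of 94 heat shock genes used here. That list may not hold every gene tied to the heat shock response, so nothing is read from their absence. The gene closest to AT1G54050 was AT2G29500 (r = 0.993), the class I small heat shock gene, followed by AT3G48440 (0.981), AT2G24560 (0.973), AT5G65880 (0.961) and AT3G54150 (0.957). Between Hsp70-2 and AT1G54050 the correlation was 0.895 over the 8 groups, which placed AT1G54050 at rank 43 for Hsp70-2 and Hsp70-2 at rank 37 for AT1G54050.

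AT2G29500, the gene nearest to AT1G54050 in pattern, had a mean signal of 109.9 at 0 h, 492.4 at 5 h, 397.4 at 13 h and 323.2 at 22 h, then 169.0 in the stump at 8 dpg, 146.9 in the tip at 8 dpg, 165.8 in the tip at 4 dpg and 50.1 in the section. EXPA4, which loosens cell walls, gave 67.7 to 230.2 at 5 h, against 25.3, 24.9 and 26.0 on arrays 2, 3 and 4 at 0 h and 51.6 on array 1.

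**Figure D5:**
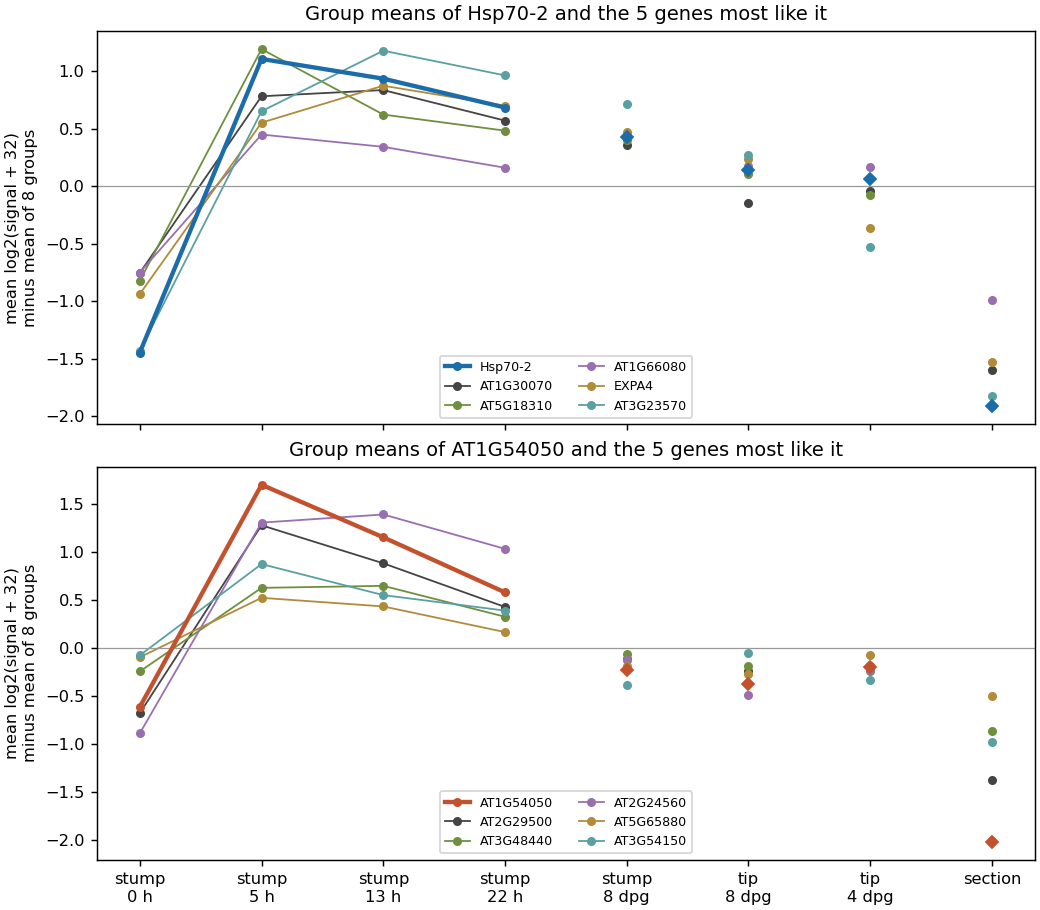
Group means of log2(signal + 32), each gene less its mean over the 8 groups, for Hsp70-2 and the 5 genes most like it (upper panel) and for AT1G54050 and the 5 genes most like it (lower panel). Lines join the stump times from 0 to 22 h, and unjoined points are the other tissues. Every gene shown has its lowest mean in the section.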

How the data were processed

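Root tissue was measured on 30 Affymetrix ATH1 arrays in 8 groups, as given by the sample titles. The authors deposited 1 intensity per probe set and array, made with MAS5 per the submitters' processing notes. Its version is not stated there. Array trimmed means are nearly equal, and no further scaling was applied. Scanner files hold no measurement and were not used.

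Signals were transformed as log2(signal + 32), which shrinks differences of dim probe sets, and fitted with limma (version 3.58.1, R version 4.3.3; functions lmFit, contrasts.fit and trended eBayes), with 1 coefficient per group and Benjamini-Hochberg adjustment over 22746 probe sets. The model was tested on simulated data. Plots used matplotlib 3.10.9. Of the probe sets, 13513 have 1 gene in the platform annotation, 503 several, and 8730 are unnamed here. RefSeq (TAIR10.1) gave names only.

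Genes named in the text are the pair, the HSP70 family genes with a named probe set and listed heat shock genes with a call. The 5 genes most like each member and the markers are named too. Hop1, Hop2, Hop3, AT4G02450, AT4G21870 and AT1G52560 are named although they had no call. The other small heat shock genes and co-chaperones are shown only in the figure of all 23 other heat shock genes. The members, lists and comparisons were chosen with earlier results of these data known.

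Same-numbered arrays were not treated as pairs in the main fit. Over 94 pairs of same-numbered arrays in different groups, deviations from the group means correlated at -0.191 to 0.628 (median -7e-04), with 11 pairs above 0.1. The median over 298 pairs of arrays with different numbers was 0.000467. Deviations cancel within a group, so such medians cannot exclude a batch shared by some arrays. Alternatives were pseudocounts of 1 and of 4 times 32, median centring, quantile normalization, removal of the 40% of probe sets with the lowest means, trend=FALSE, only the groups compared, a replicate block and each array left out. Array weights and leaving out the 4 arrays with a median signal above 120 were added after seeing the data.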

Additional observations from a re-analysis of the deposited data

Results flagged for a closer look

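In groups of 4 or 5 arrays, the gap between the end array and its nearest neighbour, divided by the range of the group, was set against Dixon's critical value for 170 pairs of gene and group. It was exceeded in 7, which is fewer than the 1 in 20 set for independent values of a normal spread. The genes share arrays, the signals are on a linear scale, and all 7 flags are the highest array of their group. The count therefore cannot decide whether the flags are chance, and nothing is read from them. AT1G54050 on array 3 of the stump at 22 h had a ratio of 0.747, with a signal of 2265.4 against 265 to 771.2 on the other arrays. Small heat shock genes were AT4G21870 on array 3 of the tip at 4 dpg (0.836, signal 102.2 against 56.6 to 64.1) and AT1G52560 on array 2 of the stump at 13 h (0.867, 73.6 against 12.6 to 20.7). HSA32, needed for lasting thermotolerance, had a ratio of 0.852 on array 1 at 0 h (450.2 against 72.8 to 128.5) and 0.937 on array 4 at 13 h (187.9 against 70.2 to 77.6). Among the genes of like pattern, EXPA4 had 0.959 on array 1 at 0 h (51.6 against 24.9 to 26.0) and AT2G24560 had 0.918 on array 2 at 0 h (72.6 against 36.2 to 39.2).

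The difference between tip and stump ran in opposite directions at the 2 ages, with every array of a group on its side. For Hsp70-2 tip minus stump was -0.28 at 8 dpg and 1.51 at 4 dpg, and for AT4G16660 it was 0.66 at 8 dpg and -0.93 at 4 dpg. Over all probe sets, the stump arrays lay wholly above the tip arrays in 8.0% at 8 dpg. The tip arrays lay wholly above the stump arrays in 2.28% at 4 dpg. The shares for the directions of AT4G16660 are not given here. Neither gene was called at 8 dpg, and AT4G16660 was not called at 4 dpg. The 0 h arrays used at 4 dpg served to choose Hsp70-2, and the history of the 8 dpg stump is not settled. Whether the differences at the 2 ages differ was not tested.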

How the results depend on the processing

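For the tested comparisons of Hsp70-2 and AT1G54050, 97 of 100 values under other settings and 61 of 64 with 1 array left out kept their side of the threshold. The sign turned in 3 of these, all of the uncalled difference between the tips at 8 and 4 dpg: Hsp70-2 was at -0.00152 with quantile normalization and -0.09 without array 4 of the tip at 4 dpg, and AT1G54050 at 0.13 without array 2 of that tip. Among the described differences 1 turned, Hsp70-2 at 22 h minus 13 h, at 0.13 without array 2 at 22 h. AT1G54050 lost its call against the section in the tip at 8 dpg with a pseudocount 4 times as large (1.06, adjusted p = 0.0968) or quantile normalization (1.39, adjusted p = 0.0583), with 1.34 to 1.97 when arrays were left out. It lost that in the stump at 8 dpg with the large pseudocount (1.17, adjusted p = 0.0591), with 1.48 to 2.11 when arrays were left out. The large pseudocount, which by construction shrinks dim signals, moved Hsp70-2 by more than the spread to 1.99 at 5 h and 1.83 at 13 h against 0 h and to 2.23 at 5 h and 2.08 at 13 h against the section, and AT1G54050 to 2.87 at 5 h and 2.37 at 13 h against the section. No value of the pair that passed the test changed sign.

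Counts among the 23 other heat shock genes moved more, and apart from the pseudocount the cause was not tested. Against the section, with the large pseudocount, 5 were called higher at 5 h, 3 at 22 h, 0 in the tip at 8 dpg, 1 in the tip at 4 dpg and 0 in the stump at 8 dpg. The tip at 8 dpg had 2 with a pseudocount of 1. With the large pseudocount 0 were lower at 13 h against 0 h and 0 higher at 22 h against the tip at 4 dpg. Quantile normalization gave 1 higher at 22 h against 0 h, 1 lower in the tip at 4 dpg against 0 h, 5 higher at 5 h and 0 in the tip at 8 dpg against the section, and 0 at 22 h against the tip at 4 dpg. Median centring gave 4 at 5 h, 3 at 22 h, 0 in the tip at 8 dpg and 1 in the tip at 4 dpg against the section, and 0 at 22 h against the tip at 4 dpg. Without the 40% dimmest probe sets 1 was higher at 22 h against 0 h, and with trend=FALSE 0 were at 22 h against the tip at 4 dpg. Fits of only the groups compared gave 2 higher at 5 h and 0 lower at 13 h against 0 h, 3 at 22 h against the section, 0 at 22 h against the tip at 4 dpg, and 3 higher and 2 lower in the tip at 8 dpg. Array weights gave 2 higher at 5 h, 1 higher and 0 lower at 13 h, 2 at 22 h against the tip at 4 dpg, and 3 higher and 2 lower in the tip at 8 dpg. Without the 4 arrays of high median there were 1 higher and 1 lower at 5 h, 0 lower at 13 h, 3 at 22 h against the tip at 4 dpg and 2 in the tip at 8 dpg.

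With each array left out in turn, the number called higher against 0 h was 0 to 5 at 5 h, 1 to 5 at 13 h, 0 to 4 at 22 h and 0 to 2 in the tip at 4 dpg, and the number lower was 0 to 1 at 5 h, at 13 h and in the tip at 4 dpg. Against the section it was 4 to 8 at 5 h, 3 to 6 at 22 h, 0 to 1 in the tip at 8 dpg, 1 to 3 in the tip at 4 dpg and 2 to 3 in the stump at 8 dpg, and at 22 h against the tip at 4 dpg it was 0 to 3.

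The replicate block changed no call of the pair, and 6 of 30 arrays correlated best with an array of their own number. With the block the 599 probe sets called at 5 h against 0 h were 703. The 780 called at 22 h against the tip at 4 dpg were 1062. With the block Hsp70-2 was at 2.05 in the tip at 8 dpg against the section (adjusted p = 0.000818 in limma) and AT1G54050 at 1.65 (adjusted p = 0.0176).

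The 599, 450 and 335 probe sets called at 5, 13 and 22 h against 0 h were 234, 238 and 182 with the large pseudocount, 139, 166 and 77 in fits of only the groups compared and 295, 279 and 206 with array weights. The 85 called at 13 h against 5 h were 151 in a fit of only those groups, 186 when the 4 arrays of high median were left out and 139 with array weights, and the 494 in the tip at 4 dpg against 0 h were 245 with the large pseudocount and 299 with array weights. Scaling moved the balance of calls over all probe sets. Median centring shifted the median difference of all probe sets by -0.37 (22 h against the section) to 0.23 (5 h against 0 h) on the log2 scale, and AT1G54050 kept its calls against the section with adjusted p of 0.0488, 0.031 and 0.0262 in the tips at 8 and 4 dpg and the stump at 8 dpg. The share of calls that were higher was 56.1% at 5 h and 69.8% at 13 h against 0 h, and 87.5% and 85.8% after median centring, with 74.7% at 5 h after quantile normalization. Against the section it was 54.0% at 5 h, 59.4% at 13 h, 61.0% at 22 h, 58.0% in the tip at 4 dpg and 57.5% in the tip at 8 dpg, and 37.5%, 35.1%, 25.8%, 31.4% and 45.7% after median centring, with 50.3% at 22 h after quantile normalization.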
